A study of Mus musculus with 8 samples.

Results

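The Dlx and Emx genes encode homeodomain transcription factors, and their mRNAs were followed here in mice that lack Lhx2, a homeodomain factor of another class, in part of their olfactory sensory neurons (OSNs). The members were the 6 Dlx genes (Dlx1 to Dlx6) and the 2 Emx genes (Emx1 and Emx2), chosen by name. Each was read by 1 transcript cluster of an Affymetrix GeneChip Mouse Gene ST array, a set of probes that spans the exons of the gene and gives a single log2 value per array, so that the 8 members were 8 of 19928 genes tested. The tested mice were 4 123Cre:Lhx2(fl/fl) conditional knockouts, called cKO, in which a Cre transgene that becomes active in immature OSNs recombines both floxed Lhx2 alleles. They were set against 4 littermate controls, each with 1 unfloxed Lhx2 allele. Of the controls, mice 1 and 2 were Lhx2(fl/+) and mice 3 and 4 were 123Cre:Lhx2(fl/+), so that a floxed Lhx2 allele was present in every animal. All were postnatal day 3 pups on a mixed 129 x C57BL/6J background, and RNA came from whole olfactory mucosa, with 1 array per sample and no mention of pooled animals. Recombination reaches only part of the OSNs in this cross, and both Emx2 alleles were intact. Mouse numbers follow the order of deposit and pair nothing.

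Dlx genes are the vertebrate relatives of Drosophila Distal-less. Most lie as linked pairs that are transcribed towards each other and share enhancers, namely Dlx1 with Dlx2, Dlx3 with Dlx4 and Dlx5 with Dlx6. They are best known for the differentiation of forebrain GABAergic interneurons, for patterning of the jaws and for bone, skin and tooth development, and Dlx5 is needed for normal growth of the olfactory epithelium and of its axons into the bulb. Emx1 and Emx2 are relatives of Drosophila empty spiracles. Emx1 is a classic marker of excitatory neurons of the cerebral cortex, while Emx2 patterns the cortex and is also made by OSNs. Factors of these families, like Lhx2 and other LIM-homeodomain proteins, bind DNA sites built around the letters TAAT, often as the palindrome TAATTA.

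The start regions of the genes were read from RefSeq (GRCm38.p6) where its promoter table held them, as windows of 300 bases that run from 250 before to 50 after the transcription start. Of the 8 members, 4 were matched (Dlx1, Dlx2, Emx1 and Emx2). Antisense partners, transcripts that run against a member, were searched as well, and 3 of them were matched. TAATTA reads the same on both strands, so 1 search covers both. It was found in 5.29% of 32851 windows, in 1 of the 4 matched members, Emx2, and in Dlx6os1, the long non-coding RNA also called Evf2 that runs through the Dlx5 and Dlx6 locus. The Emx2 window and the Dlx6os1 window with the most matches are printed, as examples of this homeodomain core site among the windows searched. A further Dlx6os1 start (chr6:6861634-6861933, minus strand) held 1 match, 174 bases before the start, and is not printed. Capitals mark TAATTA, and a match is a description of the letters, not a binding site.
Emx2 (chr19:59458440-59458739, plus strand, 1 match that begins 36 bases after the start): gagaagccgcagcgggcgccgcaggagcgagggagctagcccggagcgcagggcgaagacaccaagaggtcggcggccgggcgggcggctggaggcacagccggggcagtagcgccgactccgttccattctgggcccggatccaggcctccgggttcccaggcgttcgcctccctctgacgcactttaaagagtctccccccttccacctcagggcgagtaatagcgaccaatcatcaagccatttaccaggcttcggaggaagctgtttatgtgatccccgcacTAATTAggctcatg
Dlx6os1 (chr6:6869484-6869783, minus strand, 2 matches that begin 130 and 74 bases before the start): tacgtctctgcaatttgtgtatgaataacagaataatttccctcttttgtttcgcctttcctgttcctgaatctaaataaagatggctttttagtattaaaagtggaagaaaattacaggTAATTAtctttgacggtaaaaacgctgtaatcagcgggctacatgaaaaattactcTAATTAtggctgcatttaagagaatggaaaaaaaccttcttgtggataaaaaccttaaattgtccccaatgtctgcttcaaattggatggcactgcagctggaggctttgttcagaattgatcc

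The check on the deleted gene and on the tissue used the same arrays. Lhx2 itself read 12.55 to 13.03 in the 4 cKO mice and 13.09 to 13.20 in the 4 controls, a log2 difference of -0.24 (SE 0.11, adjusted p = 0.337 by limma), with cKO mouse 2 the lowest. Its cluster draws on probes along the gene, of which only the first exons are floxed, so it measures the deletion only in part. Omp, the marker protein of mature OSNs, fell by 0.97 (SE 0.14, adjusted p = 0.00605 by limma). With single arrays left out its difference stayed between -1.04 and -0.81, but its adjusted p was above 0.01 in 6 of 8 such fits (up to 0.0242), and it was 0.0595 by the methods' t-test and 0.0878 and 0.0755 against the Lhx2(fl/+) and the 123Cre:Lhx2(fl/+) controls alone. Gap43, a growth cone protein of immature OSNs, differed by -0.29 (SE 0.12, adjusted p = 0.268). In a sample of whole tissue, fewer cells of a type and less RNA per cell cannot be told apart. All 8 Dlx and Emx genes had a mean above 6.73, the 95th percentile of 166 vomeronasal receptor genes taken as a background level, and the lowest member mean was 7.55. Values of different genes come from different probes and are not set against each other. The sample titles carry an unexplained letter, A or B, and letter B marks cKO mouse 2 and controls 1 and 2, and sex-linked mRNAs gave cKO mouse 2 and controls 1 and 4 as female.

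No member passed an adjusted p under 0.01 in either direction by limma (0 of 8), against 2.13% of all genes, of which 12 rose (0.0602%) and 412 fell (2.07%). At 0.05 the members also numbered 0 in either direction, against 0.366% of all genes higher and 5.17% lower. The methods' t-test called 0 members at an adjusted p under 0.01, where it called 1 of all genes (0.00502%). It was run here on the deposited values without the study's scaling to mature OSN mRNAs, so its count is not the study's. The study reported significant decreases of many OR mRNAs after its own scaling. At an unadjusted p under 0.05, 3 members were higher (Dlx4, Dlx5 and Dlx6) and 0 lower by limma, against 5.13% and 9.87% of all genes, and the methods' t-test also gave 3 higher and 0 lower, against 5.09% and 9.74% of all genes. At an unadjusted p under 0.01, 2 were higher (Dlx5 and Dlx6), against 1.17% of all genes. No member (0 of 8) had every cKO mouse below every control, against 8.43% of all genes. The fitted difference was above 0 for 7 of the 8 members and for 62.3% of all genes, and below 0 for Emx2. Its median over the members was 0.21 on the log2 scale, beside 0.03 for all genes, and 0.16 without cKO mouse 4.

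**Figure D1:**
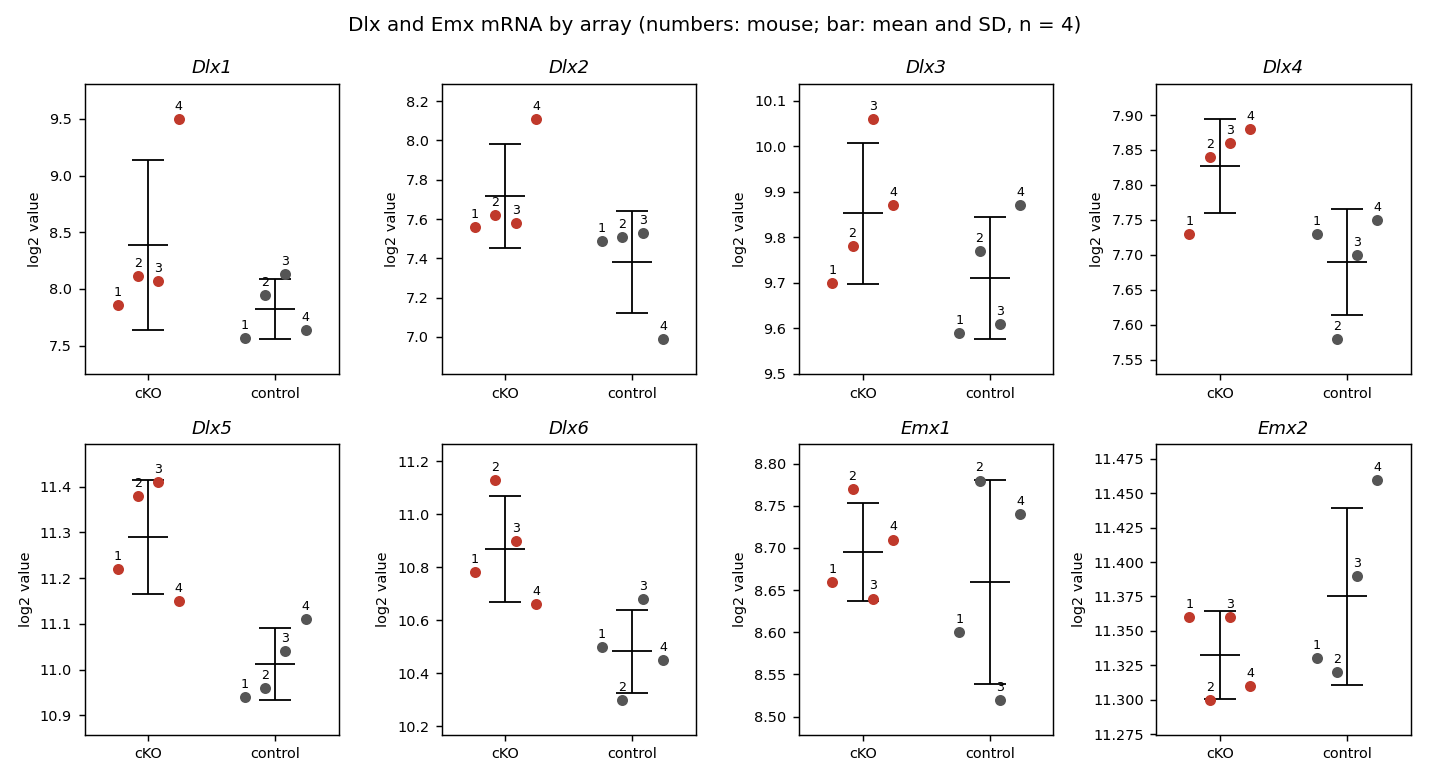
Log2 values of the 8 Dlx and Emx genes are plotted for each array, with cKO mice (red) left of controls (grey), mouse numbers beside the points and bars for mean and SD (n = 4 per group). The groups do not overlap for Dlx2 and Dlx5, cKO mouse 4 stands alone at 9.50 for Dlx1, and each panel has its own vertical scale.

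The linked pair Dlx5 and Dlx6 gave the smallest p-values among the members. Dlx5, which acts in the olfactory placode, the forebrain and osteoblasts, read 11.22, 11.38, 11.41 and 11.15 in cKO mice 1 to 4 and 10.94, 10.96, 11.04 and 11.11 in controls 1 to 4. Every cKO mouse lay above every control, an order that 3.18% of all genes shared and that 2 members had (Dlx2 and Dlx5), but the lowest cKO mouse (11.15) and the highest control (11.11) lay close together. The group means were 11.29 ± 0.13 in cKO mice and 11.01 ± 0.08 in controls (SD, n = 4 each). The log2 difference was 0.28 (SE 0.07, 95% confidence interval 0.12 to 0.44), or 21.3% higher in cKO mice, and the adjusted p was 0.0593 (limma), beside an exact permutation p of 0.0286 (two-sided, n = 4 per group), the smallest that the 70 arrangements of the arrays allow. Among 12425 genes with a difference above 0, Dlx5 ranked 95th by p-value, and 1.13% of all genes had a difference at least as high.

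Dlx6, which lies next to Dlx5 and acts with it in the jaws and in forebrain interneurons, read 10.78, 11.13, 10.90 and 10.66 in cKO mice 1 to 4 and 10.50, 10.30, 10.68 and 10.45 in controls 1 to 4. The groups overlapped by a narrow margin, since cKO mouse 4 (10.66) read just under control 3 (10.68), while the other 3 cKO mice lay above every control. Means were 10.87 ± 0.20 in cKO mice and 10.48 ± 0.15 in controls (SD, n = 4 each). The log2 difference was 0.38 (SE 0.11, 95% confidence interval 0.14 to 0.63), or 30.5% higher in cKO mice (adjusted p = 0.0937 by limma), and the exact permutation p was 0.0571 (two-sided, n = 4 per group). Of all genes, 0.437% had a difference at least as high as that of Dlx6.

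Dlx5 and Dlx6 were compared with one another within each array. The Dlx6 minus Dlx5 value averaged -0.42 ± 0.12 in cKO mice and -0.53 ± 0.15 in controls (SD, n = 4 each), a difference of 0.11 with an exact permutation p of 0.286, and 0.686 after adjustment over the 4 gene pairs compared. Both were lowest among the cKO mice in mouse 4. The highest Dlx6 value belonged to cKO mouse 2, which also had the lowest Lhx2 and Omp values of all arrays, and that mouse was second to cKO mouse 3 for Dlx5. Its array lay over 0.5 below all others in 524 genes, against 0 to 20 genes for each of the other arrays. Without cKO mouse 2 the differences were 0.25 for Dlx5 and 0.30 for Dlx6, and without cKO mouse 4 they were 0.33 (adjusted p = 0.0407 by limma) and 0.45 (adjusted p = 0.067).

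The difference of the pair was smaller within title letter A than within letter B. Among the arrays of letter A, with 3 cKO mice and 2 controls, Dlx5 differed by 0.19 (SE 0.09, adjusted p = 0.353 by limma) and Dlx6 by 0.22 (SE 0.10, adjusted p = 0.338). Among those of letter B, with 1 cKO mouse and 2 controls, the values were 0.43 and 0.72, with no test. With the letter as a block they were 0.27 (adjusted p = 0.0911) and 0.40 (adjusted p = 0.109). Whether the letters mark a batch is not stated, and because only cKO mouse 2 carries letter B, that mouse and its letter cannot be told apart among the mutants.

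**Figure D2:**
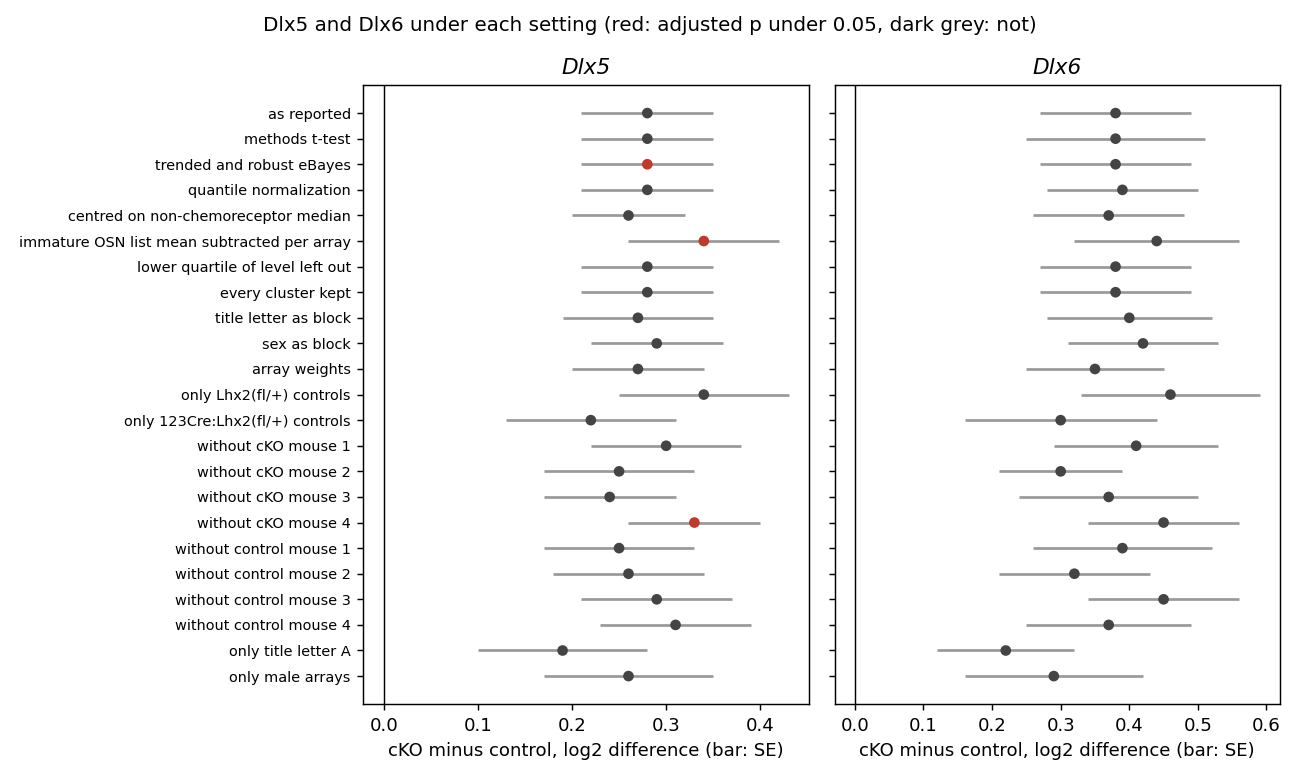
The cKO minus control log2 difference of Dlx5 (left) and Dlx6 (right) is shown for the fit as reported and for each alternative that had a test, with bars for the SE. Every value lies above 0, red points mark an adjusted p under 0.05, and the lowest values, 0.19 for Dlx5 and 0.22 for Dlx6, come from the arrays of letter A alone. The scaling to mature OSN markers, which moves every gene up by the same amount, and letter B alone are left out of the plot.

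Dlx1 and Dlx2, the pair that drives interneuron fate in the forebrain and also acts in the tooth-forming mesenchyme, had differences that rested on single arrays. Dlx1 read 7.86, 8.11, 8.07 and 9.50 in cKO mice 1 to 4 and 7.57, 7.95, 8.13 and 7.64 in controls 1 to 4. The first 3 cKO mice lay within the range of the controls, and cKO mouse 4 stood alone above them. The log2 difference of 0.56 (SE 0.33, 95% confidence interval -0.19 to 1.31, adjusted p = 0.504 by limma, exact permutation p = 0.2) became 0.19 (SE 0.14, adjusted p = 0.626) without cKO mouse 4.

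Dlx2 read 7.56, 7.62, 7.58 and 8.11 in cKO mice 1 to 4 and 7.49, 7.51, 7.53 and 6.99 in controls 1 to 4. The groups did not overlap, with every cKO mouse the higher (exact permutation p = 0.0286, two-sided, n = 4 per group), yet apart from cKO mouse 4 and control 4, which stood apart at either end, the other 6 arrays lay between 7.49 and 7.62. The log2 difference was 0.33 (SE 0.16, 95% confidence interval -0.02 to 0.69, adjusted p = 0.372 by limma). It was 0.20 without cKO mouse 4 (adjusted p = 0.559) and also 0.20 without control 4 (adjusted p = 0.62). The Dlx2 minus Dlx1 value differed by -0.23 between the groups (exact permutation p = 0.543, 0.724 after adjustment over the 4 pairs) and by 0.01 without cKO mouse 4.

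The antisense transcript Dlx1as, which overlaps Dlx1 and lies between it and Dlx2, was the only antisense partner with a cluster of its own among the genes tested, and it is described because of its values. It read 7.30, 7.40, 7.27 and 7.89 in cKO mice 1 to 4 and 7.24, 7.15, 7.18 and 7.06 in controls 1 to 4. Again cKO mouse 4 was the highest, every cKO mouse lay above every control, and the log2 difference of 0.31 (SE 0.13) did not pass (adjusted p = 0.292 by limma). The sources used here do not say which strand each cluster reads, so sense and antisense signal were not separated.

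Single arrays stood apart in other genes too. Control 4 lay over 0.5 above all other arrays in 62 genes, cKO mouse 4 in 47 and the remaining arrays in 2 to 14. On the low side, where the Dlx2 value of control 4 stood, that array lay over 0.5 below all others in 0 genes. Ranked by how far cKO mouse 4 lay above the highest of the other 7 arrays, Dlx1 was the 4th of 19928 genes, with a gap of 1.37 on the log2 scale, and Dlx2 and Dlx1as were 52nd and 53rd. The 3 genes ahead of Dlx1 encode enamel proteins. Enam read 10.52 in cKO mouse 4 and 6.12 to 7.55 elsewhere, Ambn 12.39 against 7.85 to 9.60, and Amelx 12.21 against 7.66 to 9.66. Directly after Dlx1 came the glutamate receptor genes Gria2 (gap 1.24) and Gria1 (gap 1.20), and the first 12 also held the interneuron peptide gene Sst (gap 0.81). Amelx, Gria1, Gria2 and Sst were picked after their values in that mouse were seen. By the lists, 6 of 8 tooth germ genes, 7 of 7 genes of projection neurons and 6 of 8 genes of GABAergic interneurons were highest in cKO mouse 4, beside 3 of the 8 members and 8.68% of all genes.

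The tooth germ list averaged 7.19 to 9.39 over the cKO mice and 7.46 to 7.93 over the controls. The projection neuron list averaged 7.59 to 8.17 in cKO mice and 7.62 to 7.73 in controls, and the GABAergic interneuron list 9.04 to 9.29 in cKO mice and at most 9.06 in controls. On all 3 lists the top value was that of cKO mouse 4. By limma 0 genes of the 3 lists passed. Before adjustment, with p under 0.05, the tooth germ list had 1 higher, the projection neuron list 3 and the interneuron list 1, beside 5.13% of all genes. The medians of the lists were 0.39, 0.12 and 0.12 with all arrays, and -0.03, 0.11 and 0.07 without cKO mouse 4. The smallest p of each list belonged to Amtn, an enamel-cell protein gene (0.50, adjusted p = 0.314 by limma), Neurod2, a transcription factor gene of projection neurons (0.12, adjusted p = 0.243), and Sp9, a zinc finger gene of interneurons (0.21, adjusted p = 0.293). The part of tooth or brain tissue in the Dlx1 and Dlx2 values was not tested.

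**Figure D3:**
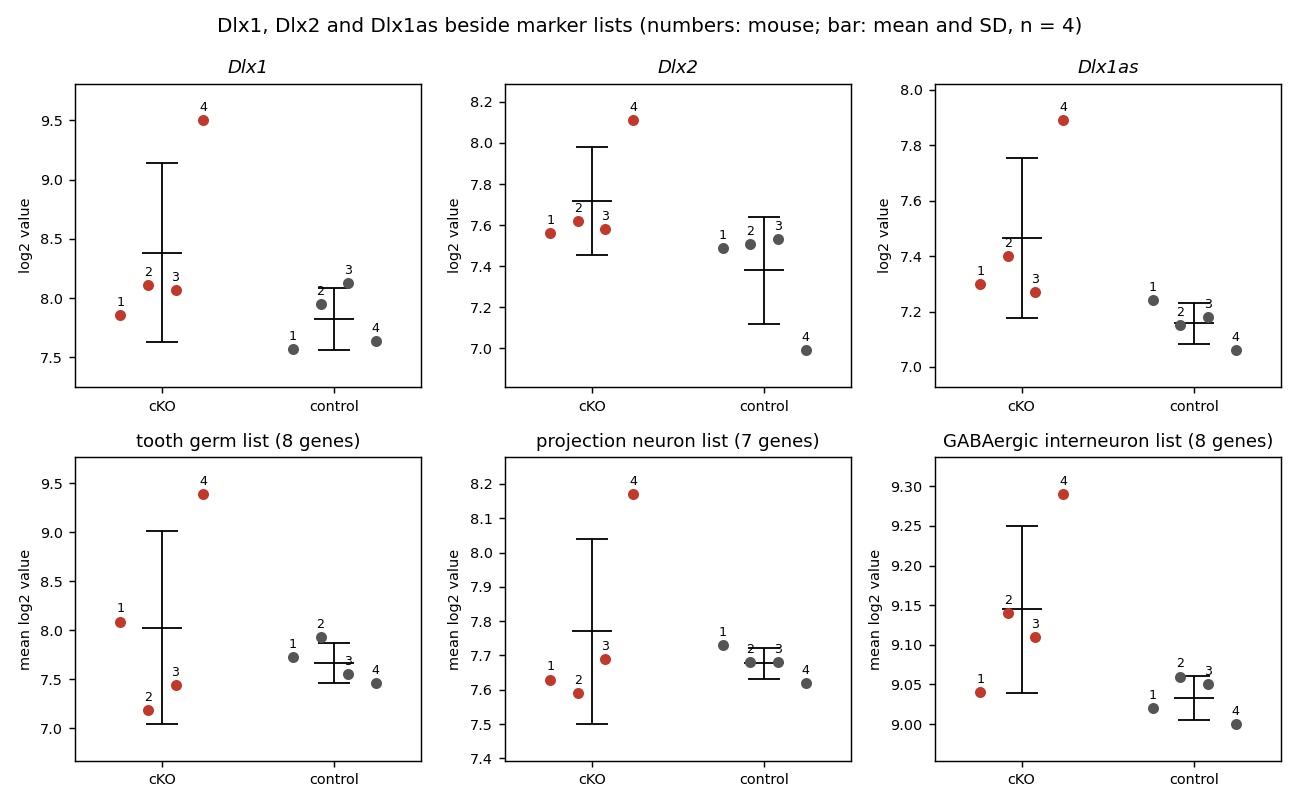
Dlx1, Dlx2 and Dlx1as (top, log2 value) are shown above the mean log2 values of the tooth germ, projection neuron and GABAergic interneuron lists (bottom), for each cKO mouse (red, left) and control (grey, right), with bars for mean and SD (n = 4 per group). In all 6 panels cKO mouse 4 is the highest array.

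Dlx3 and Dlx4, the pair known for the epidermis, hair, teeth, bone and placenta, had the same fitted difference. Dlx3 read 9.70, 9.78, 10.06 and 9.87 in cKO mice 1 to 4 and 9.59, 9.77, 9.61 and 9.87 in controls 1 to 4. The ranges overlapped, and the log2 difference was 0.14 (SE 0.09, 95% confidence interval -0.06 to 0.35, adjusted p = 0.547 by limma). Dlx4 read 7.73, 7.84, 7.86 and 7.88 in cKO mice and 7.73, 7.58, 7.70 and 7.75 in controls, so that 3 of the 4 cKO mice lay above every control and cKO mouse 1 did not. Its log2 difference was also 0.14 (SE 0.05, 95% confidence interval 0.01 to 0.26, adjusted p = 0.268 by limma, exact permutation p = 0.0571). Within arrays the Dlx4 minus Dlx3 value differed by -0.01 between the groups (exact permutation p = 0.971, also 0.971 after adjustment over the 4 pairs). Unlike Dlx1 and Dlx2, Dlx3 was highest in cKO mouse 3. Dlx4 was highest in cKO mouse 4 (7.88), as Dlx1 and Dlx2 were, but read nearly the same in cKO mouse 3 (7.86).

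The Emx genes had the differences nearest to 0. Emx2, the member that has itself been tied to OR gene expression in OSNs, read 11.36, 11.30, 11.36 and 11.31 in cKO mice 1 to 4 and 11.33, 11.32, 11.39 and 11.46 in controls 1 to 4. Its cKO values all lay under those of controls 3 and 4, and the log2 difference was -0.04 (SE 0.05, 95% confidence interval -0.15 to 0.06, adjusted p = 0.756 by limma). The interval reaches neither the fitted difference of Omp nor that of Dlx5. Emx1 read 8.66, 8.77, 8.64 and 8.71 in cKO mice and 8.60, 8.78, 8.52 and 8.74 in controls, with overlapping ranges and a log2 difference of 0.04 (SE 0.07, 95% confidence interval -0.11 to 0.18, adjusted p = 0.863). Within arrays, Emx2 minus Emx1 differed by -0.08 between the groups (exact permutation p = 0.343, 0.686 after adjustment over the 4 pairs).

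**Figure D4:**
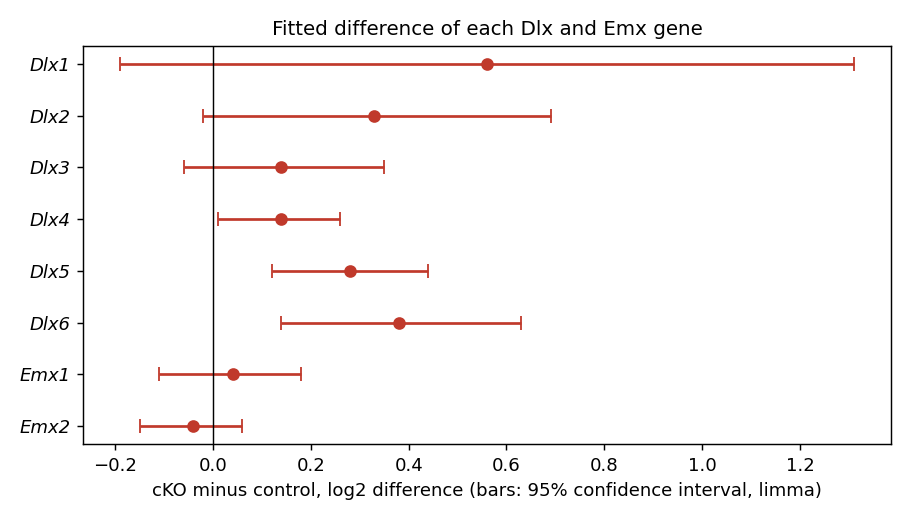
The fitted cKO minus control log2 difference of each member is drawn as a point with its 95% confidence interval by limma. The intervals of Dlx4, Dlx5 and Dlx6 lie above 0, before any adjustment for the number of genes tested, those of the other 5 members include 0, and that of Dlx1 is the widest.

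The nearest genes on either side of the members were taken among the tested genes other than members, 11 in all with Dlx1as among them. Untested genes, such as Dlx6os1, were passed over. The 11 gave 0 calls at an adjusted p under 0.01 by limma. At 0.05 they also gave 0. At an unadjusted p under 0.05, 2 were higher and 1 lower, against 5.13% and 9.87% of all genes. The differences of the 11 ran from -0.12 to 0.31, the highest being that of Dlx1as, and the lowest adjusted p was 0.247.

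The profile of Dlx5 and Dlx6 over the 8 arrays was compared with that of 19153 other genes. These had a mean above 5.37, the median of the vomeronasal receptor genes, a lower level than the 6.73 used elsewhere. The measure was the root mean square difference of log2 values after each gene was centred on its own mean. Nearest to Dlx5 were Jun, a subunit of the AP-1 transcription factor (0.0489), Gm16294 (0.0494), Tmod4, a tropomodulin of skeletal muscle (0.051), Cyren (0.0514) and Radx (0.0527). Nearest to Dlx6 were Mybpc1, a myosin-binding protein gene (0.0762), the phosphodiesterase gene Pde4c (0.0812), Hrg (0.0835), Hrk, an activator of apoptosis (0.092), and Nr3c2, the mineralocorticoid receptor (0.101). The profiles include the step between the groups, so a difference near that of Dlx5 or Dlx6 follows from the choice of these genes. The differences of these 10 genes ran from 0.20 (Cyren) to 0.46 (Hrk), and none passed an adjusted p under 0.01 by limma. Jun (0.0284), Gm16294 (0.0385), Tmod4 (0.0497) and Hrk (0.0322) had an adjusted p under 0.05 by limma. At 0.128 apart, Dlx5 was the 24th nearest gene to Dlx6, while Dlx6 was the 1225th nearest to Dlx5. The nearest fellow member of Dlx5 was Dlx4 (0.116, 610th), and Dlx1 lay far from both (0.559 from Dlx5 and 0.571 from Dlx6).

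Genes that regulate or work with Dlx and Emx showed 0 calls. Of 17 tested, 13 had a difference above 0, against 62.3% of all genes, and the median was 0.06. At an unadjusted p under 0.05, where 5.13% of all genes were higher and 9.87% lower, 0 were lower and 1 gene was higher. That gene was Msx1, a homeobox gene of the craniofacial mesenchyme whose protein can pair with Dlx proteins (0.22, SE 0.09, adjusted p = 0.251 by limma). Mef2c, an effector of endothelin signalling upstream of Dlx5 and Dlx6 in the jaw, differed by 0.15 (adjusted p = 0.355), Maged1, which encodes a Dlx5-binding protein, by 0.10 (adjusted p = 0.375), and Sp8, a zinc finger gene of the bulb and placode, by 0.11 (adjusted p = 0.447).

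Among 38 other homeobox genes of the NKL class, the class to which Dlx and Emx belong, 0 passed and 31 had a difference above 0 (62.3% of all genes did). Of the 38, 1 (Msx1 again) was higher at an unadjusted p under 0.05 (5.13% of all genes were). Their median was 0.05, and the values of Lbx2 (0.18, adjusted p = 0.355) and Hmx1 (0.12, adjusted p = 0.406) were among those with the smallest p. Of 16 homeobox genes of other classes made in the olfactory epithelium, 0 passed at either level of adjustment and 0 at an unadjusted p under 0.05. Lhx2 was the lowest, and Isl1 (0.13, adjusted p = 0.374), Zhx2 (0.10, adjusted p = 0.374) and Pax6 (0.11, adjusted p = 0.47) had the smallest p-values after it. Their median was 0.06.

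Markers of the cells that could carry Dlx or Emx mRNA were read beside the members. Of 190 genes on the lists, 7 had a mean under 6.73, the 95th percentile of the vomeronasal receptor genes that all members exceeded, among them 3 of 7 keratinocyte genes (Krt2, Ivl and Krtdap), the projection neuron gene Neurod6 (6.00) and the tooth germ gene Amtn (6.56). Of 15 mature OSN markers, 6 fell (2.07% of all genes) and 0 rose (0.0602% of all genes), with a median of -0.62. The list averaged 10.93 to 11.60 in cKO mice and 12.15 to 12.22 in controls, and Cnga4 (-1.60, adjusted p = 0.00434 by limma) and Adcy3 (-0.86, adjusted p = 0.00267), which encode a channel subunit and the cyclase of odor transduction, were among those that fell. Of 15 immature OSN markers, Stmn4, a tubulin-binding protein gene, fell (-0.30, adjusted p = 0.00447), Dcx and Ncam1 differed by -0.22 each (adjusted p = 0.0557 and 0.0587), and the median was -0.01. At an unadjusted p under 0.05, 4 of the 15 were lower (9.87% of all genes) and 1 was higher (5.13% of all genes). Like Omp, the calls of Cnga4, Adcy3 and Stmn4 ended in 6 of 8 fits with single arrays left out (adjusted p up to 0.0182, 0.0126 and 0.0194). At an unadjusted p under 0.05 (all genes: 5.13% higher, 9.87% lower), 4 of 8 OSN progenitor markers were higher and 1 lower. Of these 8 markers 0 passed, with a median of 0.11. Their highest values were those of the receptor kinase gene Kit (0.16, adjusted p = 0.0715) and the proneural gene Neurog1 (0.16, adjusted p = 0.178).

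Osteoblast markers, whose cells also use Dlx5 and Dlx6, had a median of 0.05 over 8 genes, 0 of which passed (0 at an unadjusted p under 0.05), with list means of 11.47 to 11.74 in cKO mice and 11.48 to 11.71 in controls. Alpl, the alkaline phosphatase of mineralizing bone, differed by 0.08 (adjusted p = 0.758 by limma). The medians were -0.03 for 10 chondrocyte genes, among them Comp (-0.28, adjusted p = 0.258), 0.03 for 7 genes of differentiated keratinocytes and 0.07 for 6 of horizontal basal cells, with Krt17 at 0.23 (adjusted p = 0.307). They were 0.00 for 5 sustentacular cell genes, -0.06 for 8 of respiratory ciliated cells, 0.09 for 6 of ensheathing glia, 0.11 for 7 of macrophages and -0.25 for 4 of blood. In each of these lists 0 genes passed by limma. At an unadjusted p under 0.05, the basal cell list had 1 higher, the chondrocyte list 1 lower and the ciliated cell list 3 lower. Of all genes, 5.13% were higher and 9.87% lower at that level. The part of a shift in cell makeup in the Dlx5 and Dlx6 values was not tested.

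**Figure D5:**
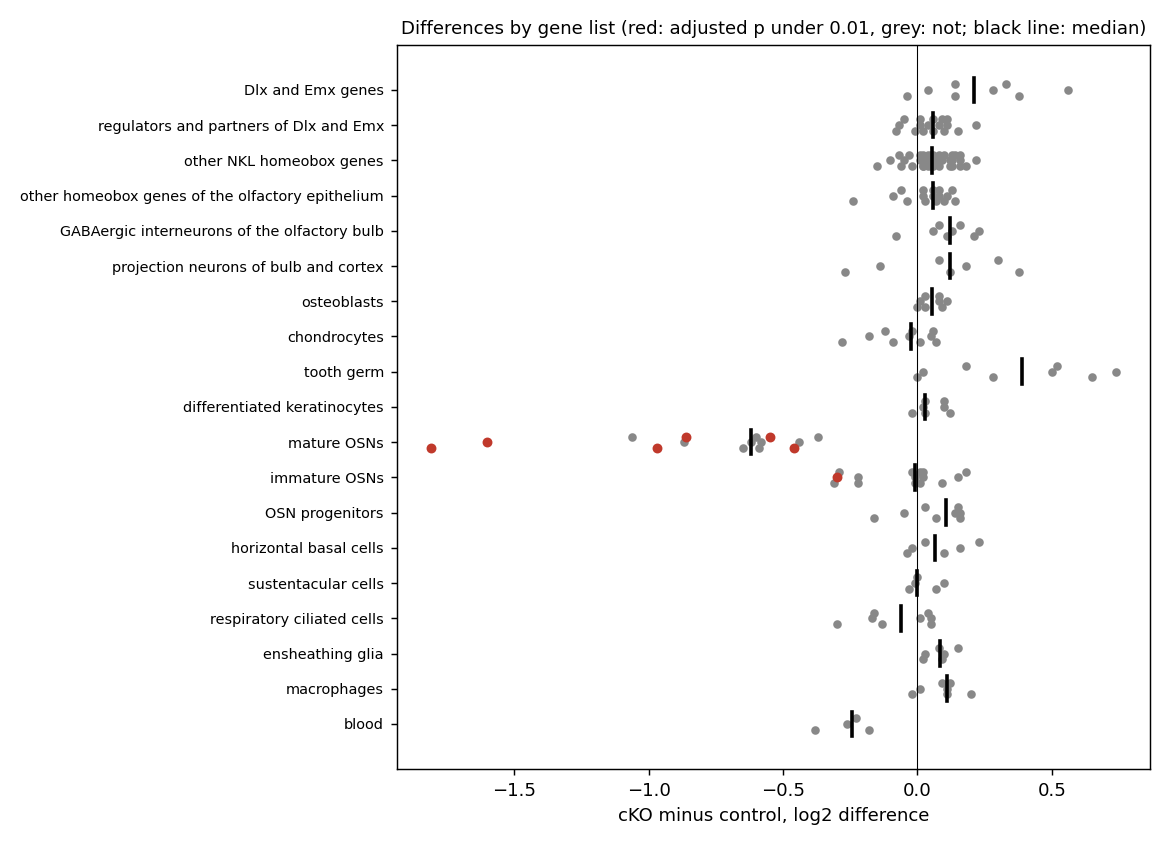
Each point is the cKO minus control log2 difference of a gene, arranged by list with the 8 Dlx and Emx genes at the top, red where the adjusted p was under 0.01 and grey elsewhere, and a black line marks the median of each list. Only mature OSN markers (6) and immature OSN markers (1) hold red points, and the median of the Dlx and Emx genes is 0.21.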

How the data were processed

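Olfactory mucosa from 8 mice was measured on 1 array each (4 cKO, 4 control). The authors deposited log2 values for 28312 transcript clusters. Per the submitters' processing notes these came from Affymetrix Expression Console, with background correction, summarization, normalization between arrays and version not given in the sources used here. Array quartiles differed by at most 0.12. Precision is limited by the 8 arrays (median SE of a difference 0.07), and probe background makes the change of dim genes look smaller.

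The platform annotation gave 1 symbol for 21759 clusters, several for 1605 (left out) and none for 4948. Where several clusters named a gene, the brightest was kept, which left 19928 genes. The cKO minus control difference was tested with limma 3.58.1 (lmFit and eBayes, R 4.3.3), two-sided, with Benjamini-Hochberg adjustment over all genes and a threshold of 0.01 after the study's own. The fit was run on simulated data as well. Single values and within-array pair differences were tested by exact permutation over 70 arrangements. The mice are separate animals per the labels, but litters are not given. The study corrects OR values for mature OSN number with the average difference of a far larger set of mature OSN mRNAs. That correction was not repeated here, in the limma fit or in the methods' t-test. As an alternative only, the mean of 15 mature OSN markers was subtracted per array, and its results do not stand for the study's correction. Genes named were the members, Lhx2, Omp, Gap43, up to 4 genes of smallest p in each of 19 lists, and the 5 nearest profiles to Dlx5 and Dlx6. Exceptions are marked. The members and lists were chosen with earlier results of these data known. Alternatives comprised other tests, thresholds, scalings, filters, blocks, control genotypes and the omission of single arrays.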

Additional observations from a re-analysis of the deposited data

Results flagged for a closer look

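In 3 cases a single array lay far from the rest of its group by Dixon's criterion for groups of 4, among 16 groups examined. Chance alone marks about 1 in 20 such groups. Dlx1 read 9.50 in cKO mouse 4, where the gap to the next cKO mouse took up 0.85 of the range of the group. Dlx2 read 8.11 in the same mouse (0.885). In the controls, Dlx2 read 6.99 in control 4 (0.91), under 7.49 to 7.53 in the other controls. The enamel genes Enam and Ambn were also highest in cKO mouse 4, at 10.52 and 12.39. No cause was tested for either mouse.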

How the results depend on the processing

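No paired analysis was possible because the labels give no replicate numbers shared by the groups. Under 21 other settings, Dlx1 to Dlx6 kept a difference above 0 in each, and with single arrays left out the range was 0.24 to 0.33 for Dlx5 and 0.30 to 0.45 for Dlx6. An adjusted p under 0.05 was reached for Dlx5 with trended and robust eBayes (0.0341), with the immature OSN list subtracted (0.0356) and without cKO mouse 4 (0.0407), while the methods' t-test gave 0.141. Subtraction of the mature OSN list mean per array, which differs from the study's correction, shifted the median of all genes by 0.80. All 8 members then passed (higher), but so did 18622 of all genes (93.4%), with 198 lower. Dlx5 was then 1.08, Dlx6 1.19, Emx2 0.76, Lhx2 0.57, Gap43 0.51, Comp 0.52, Stmn4 0.50 and Dcx 0.58, and relative to the median of all genes Dlx5 stood at 0.25, Dlx6 at 0.36 and Emx2 at -0.07. Emx2 was 0.02 with the immature OSN list subtracted and 0.01 against Lhx2(fl/+) controls alone, where Emx2 minus Emx1 was 0.00. Emx1 ran from -0.01 to 0.08 with single arrays left out, Ambn from -0.23 to 1.29, Enam from -0.34 to 1.13, Mmp20 from -0.03 to 0.30, Dlx2 minus Dlx1 from -0.35 to 0.01 and Dlx4 minus Dlx3 from -0.06 to 0.05. Dlx4 minus Dlx3 was 0.02 with quantile normalization, 0.00 with the title letter as block and against Lhx2(fl/+) controls alone, and 0.01 with sex as block. In a comparison added after the data were seen, within letter B, Dlx5 was 0.43 and Dlx6 0.72. The number of genes that rose was 73 at 0.05, 1 by the methods' t-test, 20 with the immature OSN list subtracted and 0 against either control genotype alone. The number that fell was 1031, 0 by the t-test and 0 against either control genotype. With single arrays left out, 0 to 19 rose and 30 to 657 fell (657 without cKO mouse 2, 425 without cKO mouse 1 and 30 to 99 without any other single array). In none of these was a member past 0.01 except with the mature OSN list subtracted. The causes were not tested.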

Other observations

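The controls comprised 123Cre:Lhx2(fl/+) mice and Lhx2(fl/+) mice, 2 of each, so that the members could also be read by control genotype, with no test. Dlx5 averaged 11.07 in 123Cre:Lhx2(fl/+) mice and 10.95 in Lhx2(fl/+) mice, a difference of 0.12, and Dlx6 averaged 10.56 and 10.40, a difference of 0.16. Emx2 averaged 11.43 and 11.32 (0.11), and Dlx2, which rests on control 4, 7.26 and 7.50 (-0.23). Dlx1, Dlx3, Dlx4 and Emx1 differed by 0.12, 0.06, 0.07 and -0.06. Genotype and title letter cannot be told apart among the controls. Against the 123Cre:Lhx2(fl/+) controls alone, the Dlx5 and Dlx6 differences of the cKO mice were 0.22 and 0.30, and against the Lhx2(fl/+) controls alone they were 0.34 and 0.46.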
